A study of Mus musculus with 4 samples.

Results

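Purine and pyrimidine nucleotide metabolism was examined in D2.OR cells through 34 genes, listed by symbol for de novo purine synthesis (12 genes), de novo pyrimidine synthesis (5), the supply of deoxynucleotides (11) and salvage (6). All 34 had a row among the 48432 gene identifiers of the deposited table, and 33 had enough fragments to be tested. D2.OR is a mouse mammary line of pre-malignant hyperplastic alveolar cells, and total RNA was sequenced after 7 days of 3D culture in medium with 5% Cultrex, a basement membrane extract, and 10% FBS. BORG-expressing cells, which carry a long non-coding RNA of that name (2 libraries), were compared with parental cells (2 libraries), which the table calls Empty. Whether the BORG-expressing cells were a clone or a pool, and whether the controls carried an empty vector, is not given in the sources used here, and the level of BORG itself was not analysed here. The labels do not say that the duplicates were separate cultures, and the p-values rest on a spread between duplicates that may be technical.

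Cells make purines de novo by building the ring step by step on phosphoribosyl pyrophosphate (PRPP), which PRPP synthetases supply, up to inosine monophosphate (IMP), from which separate branches lead to AMP and GMP. Pyrimidines are built as a ring first and joined to PRPP afterwards, giving UMP and then CTP. Ribonucleotide reductase turns ribonucleotides into the deoxynucleotides that DNA replication uses, and salvage enzymes recycle free bases and nucleosides. Dividing cells, tumour cells included, draw heavily on the de novo routes.

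The genes of this pathway were mostly lower in BORG-expressing cells, and a few were higher. Of the 33 genes tested, 19 fell (57.6%) and 4 rose (12.1%) at an edgeR adjusted p under 0.05, and 10 did not pass. Among all 15116 genes tested 41.1% passed, 21.3% lower and 19.9% higher. The median log2 fold change was -0.68 over the 33 genes and 0.02 over all genes tested. Of the 19 that fell, 14 were at least 2-fold lower, and of the 4 that rose (Prps2, Paics, Ctps2 and Samhd1) 1 was at least 2-fold higher. The 2 BORG-expressing libraries lay apart from the 2 parental libraries for 29 of the 33 genes, and for 72.6% of all tested genes. The 29 were all 23 that passed and 6 of the 10 that did not. Genes that pass were picked by a test on these same libraries, so that their groups lay apart adds no support. Levels are given in CPM, counts scaled to library size with TMM factors. Genes are compared with each other in FPKM, which is scaled to length as well. The ratio of FPKM to CPM of a gene was not the same in every library. In BORG-expressing libraries Nme1 had 31.3 and 25.9 CPM but 26.4 and 7.18 FPKM. Adss had 201 and 180 CPM but 51.2 and 72.1 FPKM. FPKM levels, shares and sums can thus hold a spread between replicates that CPM does not show, and its cause was not tested. All 33 tested genes were above the filter's cutoff of 0.390 CPM in each of the 4 libraries, so none was tested because it was high in 1 group only.

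**Figure D1:**
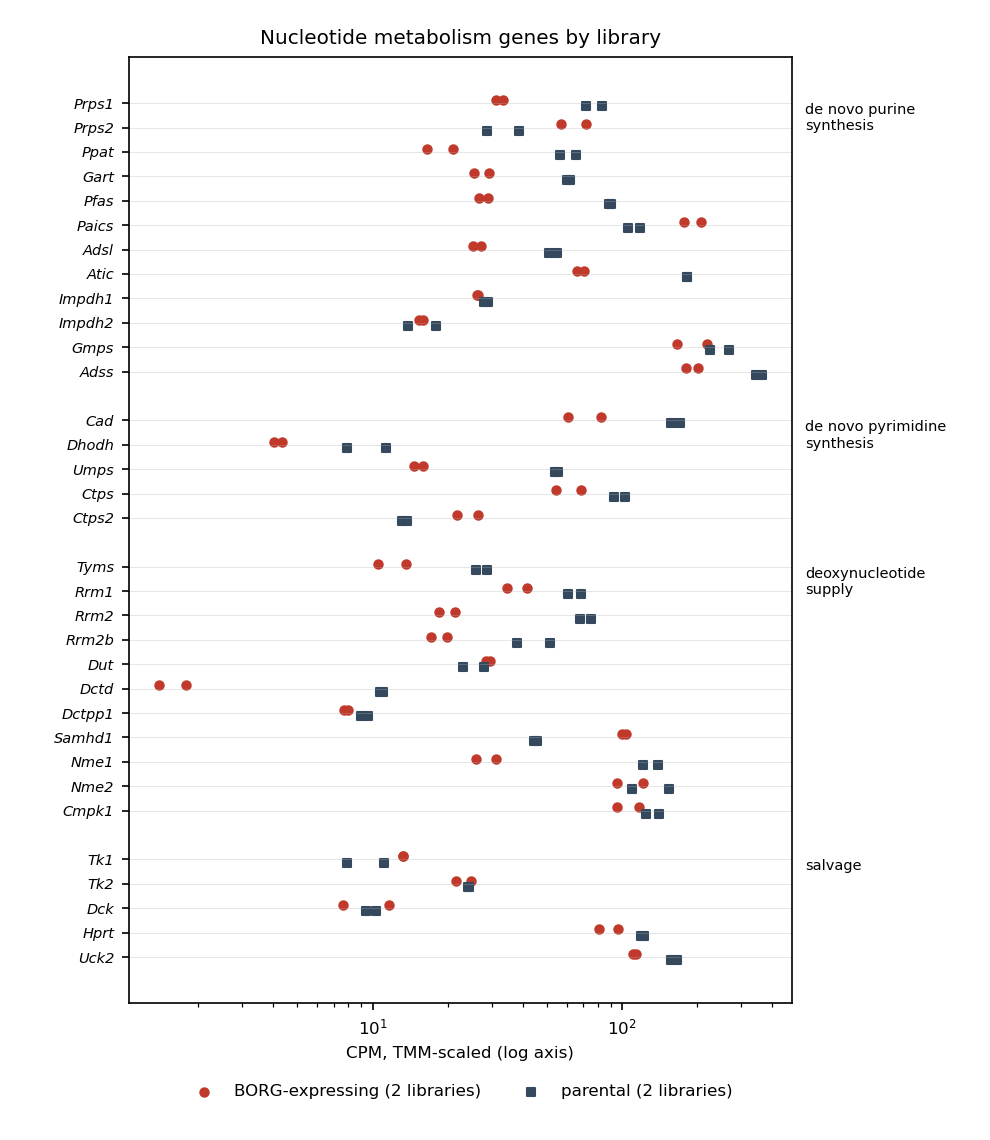
Level of each tested gene in every library, in CPM (TMM-scaled, log axis), grouped by step. BORG-expressing libraries (circles) lie left of the parental libraries (squares) for most de novo genes, and right of them for Prps2, Paics, Ctps2 and Samhd1. They also lie to the right for Dut and Tk1, which did not pass.

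The shallowest library, BORG-expressing replicate 1, held 7900767 fragments assigned to genes and the other 3 held 24176438 to 30322679. The smallest count of a tested gene in any library was 11 fragments. Without that shallow library 21 of the genes fell and 4 rose. In these bulk samples, fewer cells of a type and less RNA per cell cannot be told apart. Of 14 mammary epithelial markers 9 were tested, of which 7 rose and 1 fell (88.9% passed, against 41.1% of all genes tested). Of those that rose, Krt19, Cldn4 and Krt17 had at most 21, 30 and 91 fragments in any library. Krt8 (edgeR adjusted p = 0.0489) and Gata3 (edgeR adjusted p = 0.0497) passed narrowly. The whole list summed to 1500 and 970 FPKM in BORG-expressing libraries and 1150 and 1080 FPKM in parental libraries, which overlap. Krt8 (439 and 295 FPKM in BORG-expressing libraries, 297 and 261 in parental libraries) and Krt18 (569 and 388 FPKM, against 712 and 689) were abundant, while Elf5 was listed at 0 and Epcam lay between 0.749 and 1.29 FPKM. Krt14, a basal keratin, had 483 and 279 FPKM, against 138 and 123 FPKM in parental libraries. In CPM it had 779 and 786 in BORG-expressing libraries, against 306 and 307 in parental libraries. Of 5 tested fibroblast markers 1 rose and 2 fell, and the list summed to 99.7 and 81.6 FPKM in BORG-expressing libraries and 108 and 113 FPKM in parental libraries, nearly all of it Pdgfra and Col1a1, with Thy1 listed at 0. Of 4 tested macrophage and leukocyte markers 1 rose and 1 fell, with sums of 52.1 and 39.6 FPKM in BORG-expressing libraries and 39.5 and 35.1 FPKM in parental libraries. Most of that was Cd14, while Ptprc was at most 0.249 FPKM. Of 4 tested endothelial markers 3 fell, and their list summed to 0.697 and 0.635 FPKM in BORG-expressing libraries and 1.73 and 1.91 FPKM in parental libraries. The part of these marker differences in the results was not tested.

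De novo purine synthesis held 7 genes that fell, 2 that rose and 3 that did not pass, of 12 tested, with a median log2 fold change of -0.95. The pathway begins with PRPP, made by Prps1 and Prps2, and these closely related synthetases went opposite ways. Prps1 had 31.2 and 33.2 CPM in BORG-expressing libraries, against 71.7 and 83.4 CPM in parental libraries. Both BORG-expressing libraries were at less than the lower parental value, and Prps1 fell by 1.27 on the log2 scale with a standard error of 0.12 (edgeR adjusted p = 6.86e-04). The ± after every other log2 fold change is likewise its standard error. Prps2 had 72.0 and 57.1 CPM in BORG-expressing libraries, against 28.9 and 38.7 CPM in parental libraries. Its groups did not overlap either, and it rose by 0.92 ± 0.18 (edgeR adjusted p = 0.00949). Per length, Prps2 made up 49.1% and 49.1% of the FPKM summed over both genes in the BORG-expressing libraries, against 16.9% and 19.6% in the parental libraries. The summed level of the pair was thus split about evenly in BORG-expressing cells, while Prps1 predominated in parental cells.

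The promoter windows of this pair, from 250 bases before to 50 bases after the RefSeq start, are shown because the genes moved apart. Capitals mark the letters of any of 4 motifs searched on both strands: the E-box CACGTG, E2F sites TTTCCCGC or TTTGGCGC, the CARE site TGATGNAA to which ATF4 can bind, and the NRF1 site. No matches overlapped in the windows shown. The Prps1 window lies at chrX:140456353-140456652 on the plus strand and the Prps2 window at chrX:167382700-167382999 on the minus strand, both in GRCm38.p6.
Prps1: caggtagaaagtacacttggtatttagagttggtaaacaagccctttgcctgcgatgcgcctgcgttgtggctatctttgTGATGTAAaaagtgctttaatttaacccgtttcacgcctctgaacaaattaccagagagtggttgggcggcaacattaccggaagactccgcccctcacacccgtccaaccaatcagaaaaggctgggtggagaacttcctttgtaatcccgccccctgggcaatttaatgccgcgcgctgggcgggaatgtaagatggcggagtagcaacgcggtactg
Prps2: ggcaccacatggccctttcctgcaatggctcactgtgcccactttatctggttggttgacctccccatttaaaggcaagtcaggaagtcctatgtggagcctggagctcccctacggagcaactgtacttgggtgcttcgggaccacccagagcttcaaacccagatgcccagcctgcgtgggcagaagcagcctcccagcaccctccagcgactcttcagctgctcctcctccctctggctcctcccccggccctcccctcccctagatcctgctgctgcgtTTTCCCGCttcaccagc
The Prps1 window held 1 CARE match starting 170 bases before the start, and the Prps2 window 1 E2F match starting 33 bases after it.

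The first committed step, which puts an amino group on PRPP, is catalysed by the amidotransferase Ppat. Ppat had 21.1 and 16.6 CPM in BORG-expressing libraries, against 56.3 and 65.3 CPM in parental libraries, and it fell by 1.71 ± 0.16 on the log2 scale (edgeR adjusted p = 5.81e-04). Paics, which carries out the carboxylation and the aspartate addition in the middle of the pathway, is its divergent neighbour on chromosome 5. Paics had 208 and 178 CPM in BORG-expressing libraries, against 106 and 118 CPM in parental libraries. It was higher in both BORG-expressing libraries and rose by 0.78 ± 0.13 (edgeR adjusted p = 0.00404). The neighbours therefore differed in opposite directions, and the groups did not overlap for either gene.

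Ppat (76913249 to 76951578, minus strand) and Paics (76951307 to 76967509, plus strand) overlap by 272 bases at their 5′ ends in the GENCODE M21 annotation of GRCm38. Their RefSeq promoter windows are shown because both genes start here, Ppat from chr5:76951529-76951828 on the minus strand and Paics from chr5:76951052-76951351 on the plus strand, with 177 bases between the windows. Capitals mark the same motifs as above.
Ppat: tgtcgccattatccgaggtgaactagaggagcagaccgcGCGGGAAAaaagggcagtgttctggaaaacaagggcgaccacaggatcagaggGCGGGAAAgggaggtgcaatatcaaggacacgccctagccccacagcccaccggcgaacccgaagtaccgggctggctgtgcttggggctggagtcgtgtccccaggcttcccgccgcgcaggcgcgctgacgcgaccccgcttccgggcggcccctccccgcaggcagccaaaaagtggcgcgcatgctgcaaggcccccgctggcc
Paics: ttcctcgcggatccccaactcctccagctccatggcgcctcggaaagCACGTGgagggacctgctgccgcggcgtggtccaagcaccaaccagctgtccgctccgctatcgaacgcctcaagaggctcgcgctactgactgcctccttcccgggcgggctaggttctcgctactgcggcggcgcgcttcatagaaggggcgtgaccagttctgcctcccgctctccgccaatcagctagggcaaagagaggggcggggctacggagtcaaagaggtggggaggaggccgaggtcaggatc
The Ppat window held 2 E2F matches, 211 and 158 bases before the start, which read GCGGGAAA on the printed strand, and lies wholly within the annotated Paics gene. The Paics window held 1 E-box match starting 203 bases before the start and lies wholly within the annotated Ppat gene. The strand setting of the counting is not given, so fragments from the shared 272 bases may not be assigned to the right gene.

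**Figure D2:**
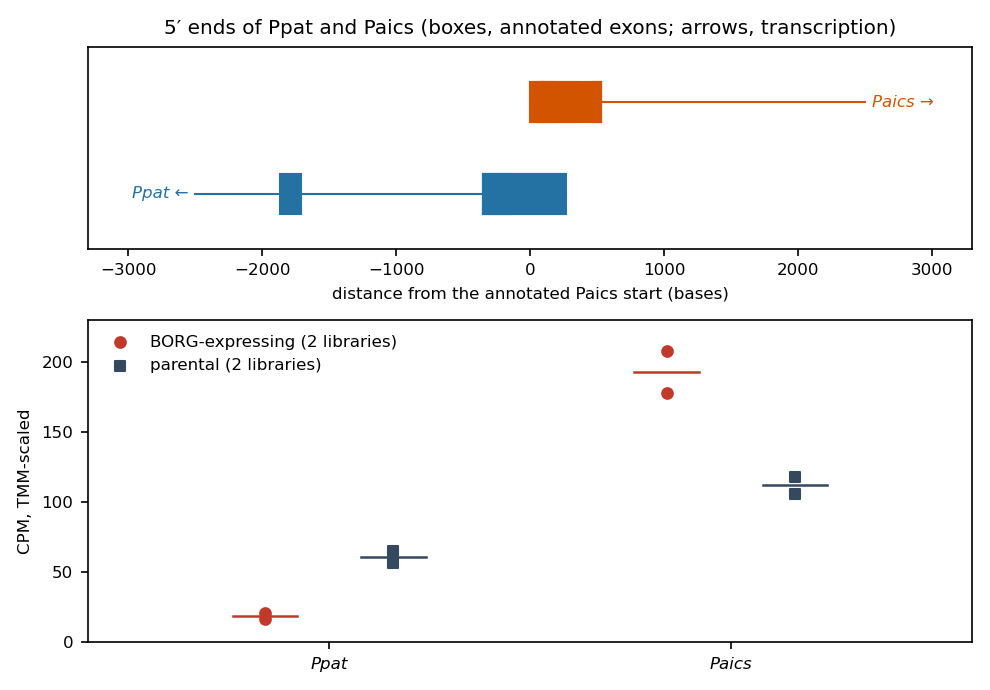
Upper panel, annotated exons (boxes) of Ppat and Paics around their shared 5′ ends, by distance in bases from the annotated Paics start; lower panel, CPM of both genes in every library (points) with the group mean (bar). Ppat lies at 16.6 to 21.1 CPM in BORG-expressing and 56.3 to 65.3 CPM in parental libraries, while Paics is at 178 to 208 CPM in BORG-expressing and 106 to 118 CPM in parental libraries.

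The enzymes between Ppat and IMP other than Paics were lower. Gart, a protein with 3 activities in the early pathway, had 25.4 and 29.4 CPM in BORG-expressing libraries, against 62.0 and 60.3 CPM in parental libraries (fell by 1.15 ± 0.12 on the log2 scale, edgeR adjusted p = 9.41e-04). Pfas, the FGAM synthase that uses glutamine, had 29.0 and 26.6 CPM, against 90.4 and 88.9 CPM in parental libraries. It fell by 1.69 ± 0.11 (edgeR adjusted p = 1.88e-04), close in size to Ppat. Atic, which closes the purine ring with a formyl group from folate, had 70.5 and 66.3 CPM in BORG-expressing libraries, against 182 and 183 CPM in parental libraries (fell by 1.42 ± 0.10, edgeR adjusted p = 2.66e-04). In all 3 genes the spread within a group was small beside the gap between groups.

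After IMP the AMP and GMP branches gave different counts of calls. Adss, which starts the AMP branch, had 201 and 180 CPM in BORG-expressing libraries, against 345 and 364 CPM in parental libraries, and fell by 0.90 ± 0.11 on the log2 scale (edgeR adjusted p = 0.00135). Adsl, the lyase that completes AMP and also acts before IMP, had 25.3 and 27.2 CPM, against 54.8 and 50.9 CPM in parental libraries (fell by 1.01 ± 0.12, edgeR adjusted p = 0.00131). None of the 3 genes of the GMP branch passed. Impdh1, the dehydrogenase isozyme, had 26.4 and 26.2 CPM in BORG-expressing libraries, against 29.0 and 28.1 CPM in parental libraries (-0.12 ± 0.12). Its partner Impdh2 had 15.3 and 16 CPM, between the 13.9 and 18.0 CPM of parental libraries (-0.03 ± 0.18). Gmps, the GMP synthetase, differed by -0.36 ± 0.16 (220 and 166 CPM in BORG-expressing libraries, 226 and 268 CPM in parental libraries, edgeR adjusted p = 0.127). Impdh2 made up 38.6% and 49.2% of the summed Impdh FPKM in BORG-expressing libraries, against 39.1% and 48.8% in parental libraries. The difference between the branches was not tested. The call for Prps2 was lost in the 3 limma fits to FPKM, and those for Paics, Adsl and Adss in the limma fit with no filter on low values. Gmps passed without BORG-expressing replicate 1 (-0.58) and with no filter on low counts (-0.41).

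De novo pyrimidine synthesis held 4 genes that fell and 1 that rose, of 5 tested, with a median log2 fold change of -1.18. All 5 passed, against 41.1% of all genes tested. Cad, the large multifunctional protein that starts the pathway, had 61.0 and 82.6 CPM in BORG-expressing libraries, against 171 and 157 CPM in parental libraries, and fell by 1.18 ± 0.16 on the log2 scale (edgeR adjusted p = 0.00235). Dhodh, the dehydrogenase of the inner mitochondrial membrane, was the gene with the lowest parental level per length among those tested (3.45 ± 1.02 FPKM, SD, n = 2). It had 4.04 and 4.34 CPM, against 11.3 and 7.92 CPM in parental libraries, and fell by 1.19 ± 0.25 (edgeR adjusted p = 0.0118). Umps, which joins the ring to PRPP and makes UMP, had 14.6 and 15.9 CPM in BORG-expressing libraries, against 54.1 and 55.6 CPM in parental libraries. Umps fell by 1.83 ± 0.12 (edgeR adjusted p = 1.98e-04), further than any other gene of this step.

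CTP synthase, the last enzyme of the route, has isozymes that moved apart as the PRPP synthetases did. Ctps had 68.4 and 54.4 CPM in BORG-expressing libraries, against 92.7 and 103 CPM in parental libraries, and fell by 0.68 ± 0.14 on the log2 scale (edgeR adjusted p = 0.0117). Ctps2 had 26.4 and 21.9 CPM in BORG-expressing libraries, against 13.1 and 13.8 CPM in parental libraries, and rose by 0.83 ± 0.16 (edgeR adjusted p = 0.00807). The groups did not overlap for either isozyme. Ctps2 made up 41.6% and 39.8% of the FPKM summed over both in BORG-expressing libraries, against 16.3% and 17.9% in parental libraries. Ctps and Ctps2 lost their calls in the limma fit with no filter, and Dhodh in the 3 limma fits, where its value was -0.77 with a pseudocount of 1.

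**Figure D3:**
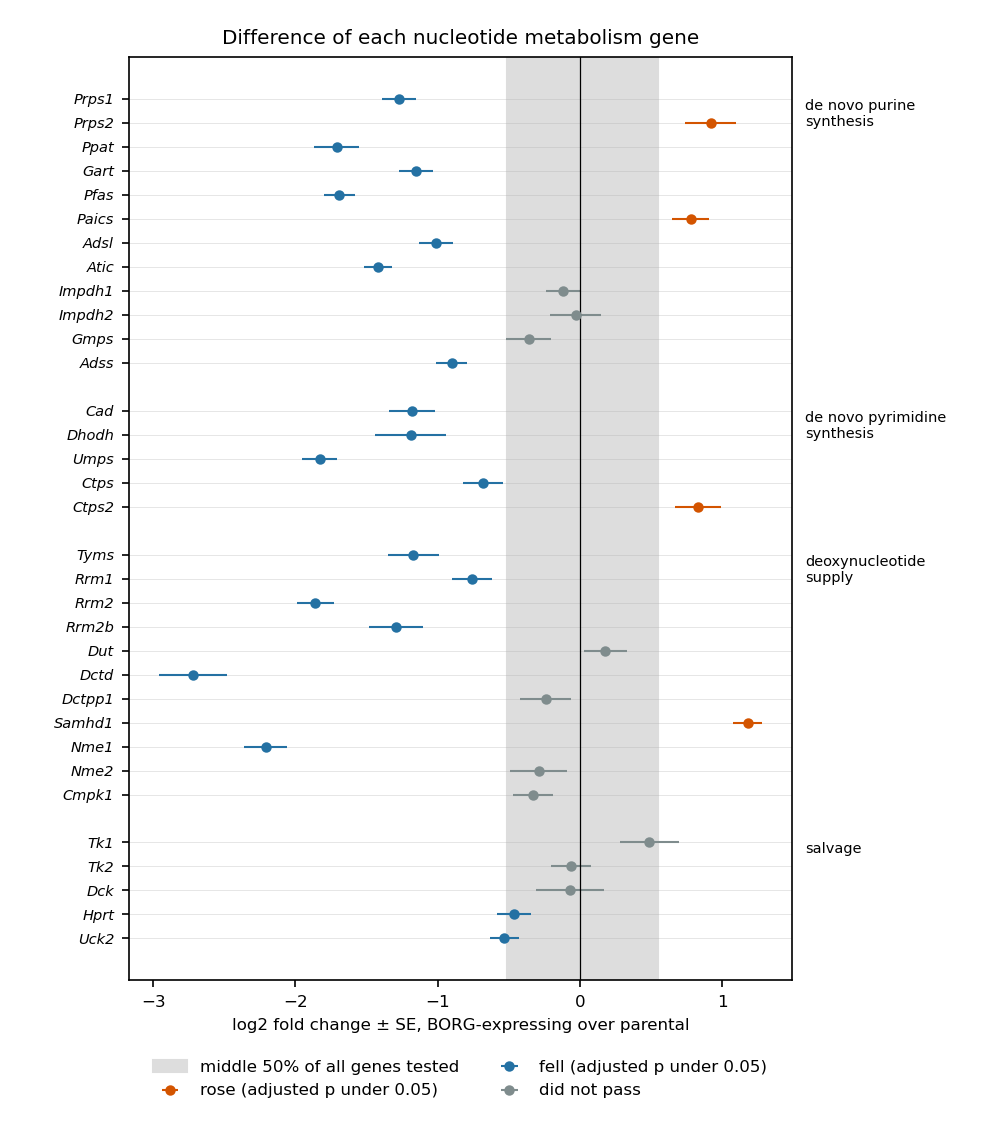
log2 fold change of BORG-expressing over parental cells with its standard error (bars) for the 33 tested genes, coloured by call, beside the middle 50% of all genes tested (grey band, -0.51 to 0.55). Of the 33 genes, 19 fell, 4 rose and 10 did not pass.

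Among the 11 genes of deoxynucleotide supply, 6 fell, 1 rose and 4 did not pass, with a median log2 fold change of -0.76. In this step 63.6% passed, against 41.1% of all genes tested. Ribonucleotide reductase is built from the large subunit Rrm1 and a small subunit, Rrm2 in dividing cells or the p53-inducible Rrm2b. All 3 subunit genes fell. Rrm1 had 41.8 and 34.7 CPM in BORG-expressing libraries, against 60.6 and 68.5 CPM in parental libraries (fell by 0.76 ± 0.14 on the log2 scale, edgeR adjusted p = 0.00640). Rrm2 had 21.5 and 18.4 CPM, against 68.0 and 75.4 CPM in parental libraries (fell by 1.86 ± 0.13, edgeR adjusted p = 2.48e-04). Rrm2b had 19.9 and 17.1 CPM, against 38.1 and 51.3 CPM in parental libraries (fell by 1.29 ± 0.19, edgeR adjusted p = 0.00276). Of the FPKM summed over the small subunits, Rrm2b was 26.5% and 33.8% in BORG-expressing libraries, against 21.6% and 25.9% in parental libraries, ranges that lay within 1 point of each other; from CPM without length the shares were 48.2% and 48.1%, against 35.9% and 40.5% in parental libraries.

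The thymidylate route was also lower at its deaminase and its synthase. Dctd, which deaminates dCMP to dUMP, had the largest fall of the 33 genes in the edgeR fit to counts. It had 1.39 and 1.79 CPM in BORG-expressing libraries, from 11 and 49 fragments, against 10.7 and 11 CPM in parental libraries. Dctd fell by 2.72 ± 0.24 on the log2 scale (edgeR adjusted p = 4.51e-04). On log2(FPKM + 1) the value was -1.55, a smaller fall than those of Rrm2 (-1.81), Ppat (-1.65), Umps (-1.65) and Nme1 (-1.58). On log2(FPKM + 0.1) it was -2.22, again the largest, ahead of Rrm2 (-1.92). Tyms, which methylates dUMP to dTMP, had 10.5 and 13.6 CPM, against 28.9 and 26 CPM in parental libraries (fell by 1.17 ± 0.18, edgeR adjusted p = 0.00320). Dut, which removes dUTP and also yields dUMP, did not pass (0.18 ± 0.15, 28.4 to 29.5 CPM in BORG-expressing libraries and 23.1 to 28.0 CPM in parental libraries). Dctpp1, a pyrophosphatase that clears modified dCTP, did not pass either (-0.24 ± 0.18, 7.70 and 7.98 CPM in BORG-expressing libraries and 9.62 and 8.95 CPM in parental libraries).

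Samhd1, the triphosphohydrolase that breaks deoxynucleoside triphosphates down, was the only gene of this step that rose by the test. It had 104 and 100 CPM in BORG-expressing libraries, against 45.5 and 44.6 CPM in parental libraries, and rose by 1.18 ± 0.10 on the log2 scale (edgeR adjusted p = 4.31e-04). The gene of the enzyme that degrades deoxynucleotides was higher in the same libraries in which all 3 genes of the reductase that makes them were lower.

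Nucleoside diphosphate kinases and the UMP/CMP kinase work on both ribo- and deoxynucleotides. Nme1 had 31.3 and 25.9 CPM in BORG-expressing libraries, against 122 and 140 CPM in parental libraries, and fell by 2.21 ± 0.15 on the log2 scale (edgeR adjusted p = 1.89e-04). Its neighbour Nme2 did not pass, with 122 and 95.7 CPM in BORG-expressing libraries and 110 and 155 CPM in parental libraries (-0.29 ± 0.20, edgeR adjusted p = 0.280). A readthrough gene, Gm20390, is annotated over both on the same strand and took 23 and 850 fragments in BORG-expressing libraries and 2374 and 1553 fragments in parental libraries, so the split of fragments among the 3 is uncertain. Their sum was 156 and 153 CPM in BORG-expressing libraries, against 332 and 347 CPM in parental libraries, a log2 ratio of means of -1.14. The sum varied less between replicates than its parts and was lower in both BORG-expressing libraries. Nme2 made up 86.6% and 91.8% of the FPKM summed over Nme1 and Nme2 in BORG-expressing libraries, against 75.4% and 72.7% in parental libraries.

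Cmpk1, the UMP/CMP kinase, differed by -0.33 ± 0.14 (117 and 95.8 CPM in BORG-expressing libraries, 125 and 141 CPM in parental libraries, edgeR adjusted p = 0.103). It passed without BORG-expressing replicate 1 (-0.48) and with no filter on low counts (-0.38), and Nme2 passed without parental replicate 1 (-0.57) and with no filter (-0.35). The call for Nme1 was lost in the 3 limma fits to FPKM, and those for Tyms, Rrm1 and Rrm2b in the limma fit with no filter.

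Among the steps, the listed salvage genes differed least: 2 of the 5 tested fell, none rose, and the median log2 fold change was -0.07. This share of 40.0% is close to the 41.1% over all genes tested. It does not cover salvage enzymes outside this step, which were counted in another list. Of those, the adenosine kinase Adk fell by 1.35 ± 0.23 and Uprt by 0.54 ± 0.14 on the log2 scale. Uckl1 rose by 0.81 ± 0.15, and Uck1 and Dguok did not pass. Hprt, which salvages hypoxanthine and guanine, had 96.1 and 80.8 CPM in BORG-expressing libraries, against 119 and 123 CPM in parental libraries (fell by 0.46 ± 0.12 on the log2 scale, edgeR adjusted p = 0.0274). Uck2, a uridine-cytidine kinase, had 114 and 111 CPM, against 158 and 167 CPM in parental libraries (fell by 0.53 ± 0.10, edgeR adjusted p = 0.00815). Both calls were lost in the 3 limma fits and without parental replicate 2 (-0.45 for Hprt, -0.50 for Uck2), and that of Hprt also without BORG-expressing replicate 2 (-0.33).

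The thymidine kinases did not pass. Tk1, the cytosolic enzyme that peaks in S phase, had 13.3 and 13.3 CPM in BORG-expressing libraries, against 11.1 and 7.92 CPM in parental libraries (0.49 ± 0.21, edgeR adjusted p = 0.112). Tk2, the mitochondrial enzyme, had 21.6 and 24.8 CPM, against 24.2 and 24.3 CPM in parental libraries (-0.06 ± 0.14). Tk2 made up 41.6% and 52.1% of their summed FPKM in BORG-expressing libraries, against 54.3% and 63.0% in parental libraries. Dck, the deoxycytidine kinase, had overlapping groups (11.6 and 7.58 CPM in BORG-expressing libraries, 9.37 and 10.3 CPM in parental libraries). Aprt, which salvages adenine, was listed at 0 in all 4 libraries and was not tested; since genes that every cell uses can be listed at 0 in such a table, no level is read from it.

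**Figure D4:**
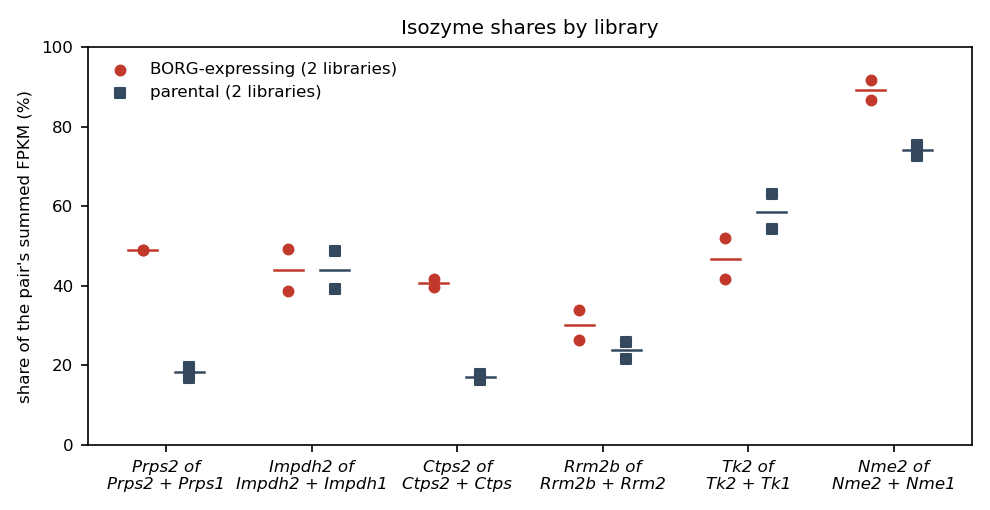
Share of an isozyme in the FPKM summed over its pair (%), for 6 pairs, in every library (points) with the group mean (bar). Prps2 is at 49.1% in BORG-expressing libraries, against 16.9% to 19.6% in parental libraries, and Ctps2 at 39.8% to 41.6%, against 16.3% to 17.9%.

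The 6 isozyme pairs behaved in different ways. The shares of the groups did not overlap for Prps2, Ctps2, Rrm2b, Tk2 and Nme2, and overlapped for Impdh2. For Rrm2b (26.5% against 25.9%) and Tk2 (52.1% against 54.3%) the nearest libraries of the groups lay closer together than the replicates within either group. The mean share of Prps2 was higher by 30.8 points in BORG-expressing cells (49.1% ± 0.0164 against 18.2% ± 1.87 in parental cells, SD, n = 2 each), and that of Ctps2 by 23.6 points (40.7% ± 1.29 against 17.1% ± 1.17). Where Prps2 and Ctps2 gained share, the partner fell and the isozyme itself rose; where Rrm2b gained, both genes fell. An exact permutation test over 2 against 2 libraries cannot give a p below 0.333, and the shares are given as a description, with no test.

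Per length, the most abundant of the 33 genes in BORG-expressing cells were Nme2 (126 ± 64.0 FPKM), Paics (75.1 ± 0.921), Hprt (67.5 ± 12.2) and Adss (61.7 ± 14.8). In parental cells they were Adss (133 ± 16.9 FPKM), Nme2 (127 ± 30.4), Hprt (106 ± 15.4) and Atic (61.2 ± 2.85, SD, n = 2 each). In parental cells Adss, Nme2 and Hprt lay within the sum of their SDs of each other, and in BORG-expressing cells Nme2 was within its SD of Paics and Hprt. Paics ranked 2 in BORG-expressing cells and 6 in parental cells, Samhd1 ranked 6 and 21, and Rrm2 ranked 21 and 9.

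Of the 34 genes, 31 had a RefSeq promoter window, with a median of 61% G and C over their 39 windows, against 52.7% over all 32851 windows. An E-box was present for 5 of the 31 (16.1%), against 8.09% of 27025 genes with a window: Atic, Nme1 and Tyms, which fell, Paics, which rose, and Impdh2, which did not pass. The E2F letters were present for Ppat and Prps2 (6.45%, against 1.8% of all), the CARE letters for Prps1 (3.23%, against 4.51%) and the NRF1 letters for Ctps (3.23%, against 1.07%). These are matches of letters and not measured binding.

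Genes of nucleotide metabolism beyond the 34 were counted by lists. Of 68 tested in 8 lists, 33 fell and 11 rose, a median log2 fold change of -0.45. Of these 68 genes 64.7% passed, against 41.1% of all genes tested (21.3% lower and 19.9% higher). The folate enzymes that feed purine and thymidylate synthesis stood lowest: 8 of 9 tested fell and none rose, with a median of -2.0. The mitochondrial enzyme Aldh1l2 had 70.2 and 64.8 CPM in BORG-expressing libraries, against 948 and 1030 CPM in parental libraries (fell by 3.87 ± 0.11 on the log2 scale, edgeR adjusted p = 6.22e-05). Shmt2, which draws carbon from serine in mitochondria, fell by 3.69 ± 0.11 and Mthfd2 by 3.54 ± 0.11 (edgeR adjusted p = 6.22e-05 each). These falls were larger than that of any of the 34 genes.

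Of 3 tested nucleoside transporters, Slc29a1, the equilibrative carrier, fell by 2.29 ± 0.11 on the log2 scale (42.2 and 44.4 CPM in BORG-expressing libraries, 218 and 204 CPM in parental libraries, edgeR adjusted p = 8.57e-05). Slc29a2 fell by 1.42 ± 0.23. Of the transporters tested 66.7% passed, and of the pentose phosphate enzymes 57.1%, against 41.1% of all genes tested. Of 7 pentose phosphate enzymes, a route that makes the ribose of PRPP, 3 rose, 1 fell and 3 did not pass (median log2 fold change 0.18). The one that fell was Rpia, the isomerase that makes ribose 5-phosphate, with 12.2 and 9.15 CPM in BORG-expressing libraries, against 19.8 and 19.2 CPM in parental libraries (fell by 0.89 ± 0.19, edgeR adjusted p = 0.0113). Transketolase, Tkt, rose by 0.97 ± 0.10 (edgeR adjusted p = 9.78e-04) and transaldolase, Taldo1, by 0.97 ± 0.11, both enzymes of the non-oxidative arm, and Pgd, of the oxidative arm, rose by 0.80 ± 0.11.

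The remaining lists held calls in both directions. Among 17 other nucleotide kinases and salvage enzymes, 6 fell and 4 rose: the adenylate kinase Ak1 rose by 1.95 ± 0.13 and Adssl1, the muscle type of adenylosuccinate synthetase, by 1.93 ± 0.22, while Cmpk2, a mitochondrial UMP/CMP kinase, fell by 1.38 ± 0.12. Adssl1 had 6.87 and 4.75 FPKM in BORG-expressing libraries, against 1.61 and 1.18 FPKM in parental libraries, far under Adss. Of 10 genes of purine interconversion and breakdown, 5 fell and 1 rose, among them Lacc1 (fell by 1.67 ± 0.25), Adal (fell by 1.06 ± 0.17) and the AMP deaminase Ampd2 (fell by 0.73 ± 0.13). Of 4 pyrimidine breakdown genes the cytidine deaminase Cda rose by 1.47 ± 0.26 and the uridine phosphorylase Upp1 fell by 0.50 ± 0.11. Of 13 nucleotidases 7 fell and 1, Entpd7, rose by 1.35 ± 0.18; Nt5dc1 fell by 1.07 ± 0.13 and Nt5c3b by 1.33 ± 0.18. Of 5 genes of pool cleaning 3 fell and 1 rose, with Nudt5 lower by the test (fell by 0.86 ± 0.12) and Nudt1, which removes oxidised purine triphosphates (fell by 1.25 ± 0.40), and Nudt18 higher (rose by 1.53 ± 0.17). Nudt1 rested on 7 fragments in BORG-expressing replicate 1.

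**Figure D5:**
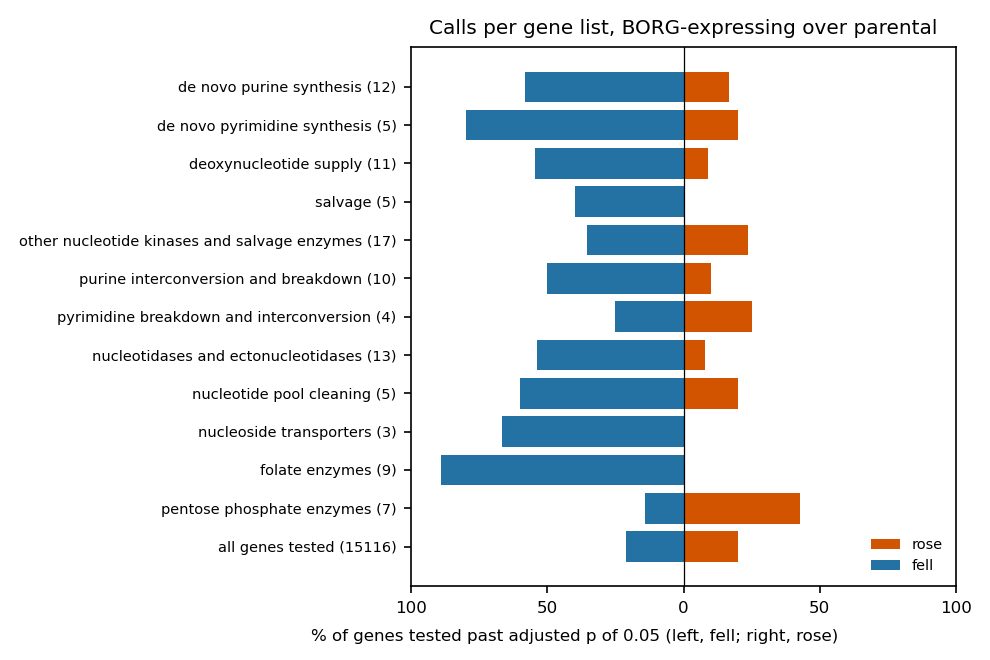
Share of tested genes that fell (left) or rose (right) at an adjusted p under 0.05 in each of the 12 nucleotide metabolism lists drawn, with the number tested in brackets, beside all 15116 genes tested (21.3% fell, 19.9% rose). Of the lists drawn, the longest bars to the left are those of folate enzymes (8 of 9) and de novo pyrimidine genes (4 of 5), and the longest to the right is that of pentose phosphate enzymes (3 of 7).

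Genes of DNA replication and known regulators were counted in the same libraries. Of 28 tested S phase and replication genes 13 fell and 2 rose, with a median log2 fold change of -0.48. In this list 53.6% passed, against 41.1% of all genes tested. The polymerase gene Pole fell by 2.41 ± 0.14, Mcm3 by 1.56 ± 0.14 and Pola1 by 1.56 ± 0.18. The 2 that rose were Pold1, by 1.28 ± 0.17, and Rfc3, by 0.83 ± 0.16. Summed over the 30 genes of that list the level was 164 and 163 FPKM in BORG-expressing libraries, against 215 and 231 FPKM in parental libraries. Of 11 tested regulators 6 fell and 2 rose (72.7% passed). Myc, a transcription factor known to act on many nucleotide genes, had 41.9 and 51.6 CPM in BORG-expressing libraries, against 267 and 219 CPM in parental libraries (fell by 2.37 ± 0.16, edgeR adjusted p = 2.06e-04). Atf4, which acts on genes of serine and folate metabolism, fell by 1.83 ± 0.10. Trp53 rose by 2.36 ± 0.18 and E2f1 by 1.13 ± 0.17. The others that fell were E2f2 (by 1.55 ± 0.15), E2f8 (0.73 ± 0.12), Tfam (0.62 ± 0.14) and E2f4 (0.60 ± 0.14), while E2f3 and E2f7 did not pass. The part of these genes in the results was not tested.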

How the data were processed

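RNA of 4 libraries was sequenced, and 1 table holds a row per gene and library. Its raw fragments are estimated counts, not all whole, that the authors deposited per gene, and its FPKM values, per the file headers, are fragments scaled to length and library size. FastQC, Trim Galore, TopHat and Cufflinks, with GRCm38, mm10 and mm8 as builds, are named in the submitters' processing notes. Their versions, the annotation and the strand setting are not given there. The table's condition Empty was taken as parental, and its replicates, which start at 0, as replicates 1 and 2. The other 2 columns of values, scaled fragments that equal each other, were not used. GENCODE M21 gave symbols to 48051 of 48432 identifiers and all coordinates of genes; promoter windows are RefSeq's in GRCm38.p6.

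Estimated counts were rounded, then compared by edgeR 4.0.16 (R 4.3.3; TMM, filterByExpr, quasi-likelihood F test, two-sided, Benjamini-Hochberg over all 15116 genes tested, threshold 0.05); the SE was derived from F and the fold change. CPM carry TMM factors; genes are compared with each other by FPKM. The biological coefficient of variation was 0.168. Fitting steps were run on simulated counts with known changes, to check the sign and size of fold changes. That run held far fewer changed genes than were called here, and it did not check the share of false calls. Alternatives used RLE factors, library totals, other filters, DESeq2 1.42.0, limma 3.58.1 on log2(FPKM + 1) or log2(FPKM + 0.1) (mean of at least 0.5 FPKM, or no filter), a replicate block, and each library left out. Members and lists were chosen with earlier results of these data known. Values in every library were given for genes that passed with an absolute log2 fold change of at least 0.5, for isozyme pairs and for further genes; of the other lists, up to 3 genes with the smallest p among those that passed with at least 1 FPKM were named. Gm20390, Rpia, Adk, Uprt, Uckl1, Pold1, Rfc3, E2f1, E2f2, E2f4, E2f8 and Tfam were named outside that rule, after their values were seen. So were Krt8, Krt17, Krt19, Cldn4, Gata3, Epcam, Elf5, Col1a1, Cd14, Thy1, Ptprc and the genes not past the test. An annotated neighbour overlaps 7 of the 34 genes in sense and 13 in antisense, and related genes can share reads, so counts are uncertain to that extent.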

Additional observations from a re-analysis of the deposited data

How the results depend on the processing

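The number of genes of the pathway that fell stayed between 17 and 22, and the number that rose at 4, under RLE factors, library totals, both count filters, DESeq2, the replicate block and each library left out (17 to 21 fell). The 2 filtered limma fits to FPKM gave 15 that fell and 3 that rose; limma with no filter gave 9 and 1, while testing more genes. Over the whole table, limma called 1430 higher and 1759 lower with a pseudocount of 1, 1492 and 1818 with 0.1, and 586 and 839 with no filter. Of the 23 calls, 9 held in all 13 alternatives and that of Dctd in the 12 in which it was tested, and 0 of 297 values of these genes changed sign. Signs near 0 turned for Impdh1 (0.02 in each limma fit), Impdh2 (0.01 in each limma fit, 0.02 with at least 5 FPKM, -0.25 to 0.16 with a library left out), Tk2 (-0.17 to 0.02 with a library left out) and Dck (-0.38 to 0.24), none of which passed. Where a cause is not named here, the cause was not tested.

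Like-numbered libraries did not vary together: their deviations from the group means correlated at -0.441 across genes. Libraries of unlike number thus varied together to that extent. The main fit has no block and keeps this spread in its error. With the replicate block 1986 genes were higher and 2204 lower over the table, 17 genes of the pathway fell and 4 rose, and Hprt and Uck2 lost their calls; no other call among the 33 changed. With the numbers crossed, an alternative added once the data had been seen, 4619 were higher and 4700 lower over the table, and 22 genes of the pathway fell and 5 rose.

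Isozyme shares from CPM without length gave a difference of 36.3 points for Prps2, 16.2 for Ctps2, 29.1 for Nme2 (15.2 by FPKM) and 9.92 for Rrm2b (6.41 by FPKM), and for Impdh2 1.56 in place of -0.0853. Of the 10 genes that did not pass, Gmps, Cmpk1 and Nme2 passed in 2 alternatives each; a p that misses the threshold does not show that the others did not differ. The shallowest library held 7900767 fragments, and the lowest count of a tested gene was 11.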
